A study of Aspergillus nidulans with 12 samples.

Results

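The genes described here are 38 members of 5 aromatic polyketide gene clusters of Aspergillus nidulans, out of 11118 AN genes in all. They were chosen by cluster membership and not by any measured value. The orsellinic acid cluster (ors) gave 5 members, AN7909 and AN7911 to AN7914. The monodictyphenone cluster (mdp) gave 12, which were AN0146 to AN0150, AN10021 to AN10023, AN10035, AN10038, AN10044 and AN10049. The asperfuranone cluster (afo) gave 7, AN1029 to AN1032 and AN1034 to AN1036. The asperthecin cluster (apt) gave 3, AN6000 to AN6002, and the dba cluster gave 11, AN7893 to AN7903. A member was counted in a list of peaks when the deposited annotation named it as the gene nearest to at least 1 peak, and the same count was made for the 11080 other AN genes.

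Filamentous fungi make aromatic polyketides on large iterative polyketide synthases, which join acetate units into a chain that folds into rings. The synthase gene usually lies in a cluster with genes for tailoring enzymes, and often with a gene for a transcription factor that switches on the cluster. VeA is a velvet family protein that acts with VelB and LaeA in the nucleus, and LaeA is its partner there, known for its hold on secondary metabolism. Loss of either is known to change the output of many such clusters. By the A. nidulans literature, the polyketide synthase genes among the members are AN7909 (orsA), AN0150 (mdpG), AN1034 (afoE), AN1036 (afoG), AN6000 (aptA) and AN7903 (dbaI). The genes known for cluster regulation are AN10021 (mdpA), AN0148 (mdpE), AN1029 (afoA) and AN7896 (dbaA). These names and roles are background and do not come from the peak lists.

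Protein and DNA contacts were measured by chromatin immunoprecipitation with sequencing (ChIP-seq) in vegetatively grown cells (Vege), taken after 24 h in shaken liquid glucose minimal medium in the dark. The tested strains were RJW324.3, in which VeA carries a FLAG tag (VeA::FLAG), and RJW302.11, in which LaeA carries it (LaeA::FLAG). The untagged strain RDIT9.32 was the wild type (WT) and showed what the antibody brings down without the epitope. Each strain gave 3 anti-FLAG libraries and 1 negative control library with anti-rabbit IgG, 12 libraries in all. The series asks which genes VeA and LaeA contact at their promoter regions. Each tagged strain is a single isolate. The labels do not say whether the 3 libraries of a strain came from separate cultures, so the p-values below measure the spread between these libraries, which may be technical. The data are lists of called peaks. A gene without a peak therefore has no signal value in that library, and the number of genes with a peak follows how many peaks were called. Between 4252 and 5783 peaks were called in the VeA::FLAG libraries, 557 to 2471 in the LaeA::FLAG libraries and 134 to 1831 in the WT libraries. By library, VeA::FLAG had 1456059.5 to 1893170.5 tags, LaeA::FLAG had 970627.5 to 3701440 and the untagged WT had 319742 to 7974006.

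Members were named near peaks in both tagged strains, and their share was below that of the other genes in both combined lists. The combined list of a strain was called on its 3 anti-FLAG libraries together. In the combined VeA::FLAG list, 13 of the 38 members (34.2%) were nearest to 15 peaks, whereas 40.2% of the other genes had a peak. In the combined LaeA::FLAG list, 5 members (13.2%) were nearest to 5 peaks, whereas 25.2% of the other genes had a peak. One gene, AN7895 of the dba cluster, was named in both combined lists (2.63% of the members), against 15.7% of the other genes. By cluster, a combined VeA::FLAG peak was named for 3 of 3 apt genes, 2 of 5 ors genes, 4 of 11 dba genes, 3 of 12 mdp genes and 1 of 7 afo genes. In the combined LaeA::FLAG list, 3 of the 7 afo genes and 2 of the 11 dba genes were named and no gene of the other clusters.

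The single libraries showed how far these counts repeat. In VeA::FLAG replicates 1, 2 and 3, 11, 11 and 14 members had a peak, against background shares of 32%, 39.7% and 39.9% of the other genes. In the LaeA::FLAG replicates the numbers were 9, 1 and 0 members, against 19.8%, 17.7% and 4.78% of the other genes. In the WT replicates they were 0, 5 and 1 members, against 1.13%, 15% and 1.73%. All 3 VeA::FLAG libraries lay above all LaeA::FLAG and WT libraries, while the LaeA::FLAG and WT libraries overlapped.

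**Figure D1:**
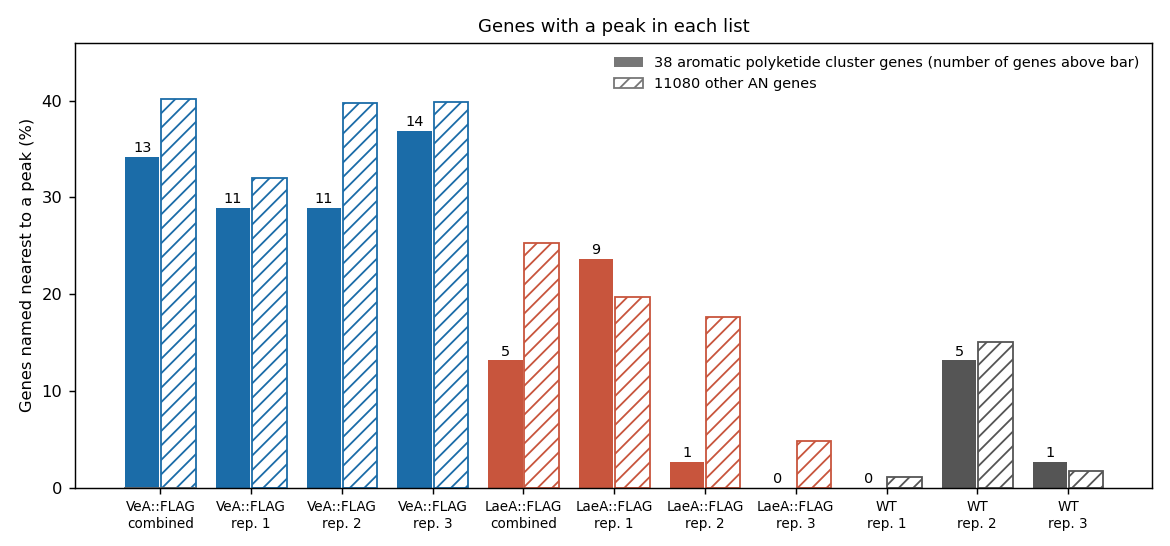
Percentage of the 38 members (filled bars, number of genes above each) and of the 11080 other AN genes (hatched bars) named as nearest gene of at least 1 peak, for the combined lists and the single libraries of VeA::FLAG (blue), LaeA::FLAG (red) and WT (grey). The members lie below the other genes in every VeA::FLAG list, and above them only in LaeA::FLAG replicate 1 and WT replicate 3.

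The share of members with a peak averaged 31.6% ± 4.56 in VeA::FLAG, 8.77% ± 13.0 in LaeA::FLAG and, for the WT background, 5.26% ± 6.96 (SD, n = 3 each). VeA::FLAG exceeded WT by 26.3 percentage points (exact two-sided permutation test over libraries, p = 0.1) and LaeA::FLAG by 22.8 points (exact permutation test, p = 0.1). LaeA::FLAG and WT differed by 3.51 points (exact permutation test, p = 0.9). With 3 libraries against 3, the exact test cannot give a p under 0.1, so no comparison of this kind can pass 0.05. These differences depended on which peaks were counted. With peaks within 1.5 kb upstream of exon 1, VeA::FLAG exceeded WT by 12.3 points and LaeA::FLAG by 10.5 points (exact permutation tests, p = 0.1 each), and LaeA::FLAG exceeded WT by 1.75 points (exact permutation test, p = 1). With the 134 top-scoring peaks of each library no member was named, and all 3 differences were 0. The other genes had the same order, with 37.2% ± 4.48 for VeA::FLAG libraries, 14.1% ± 8.11 for LaeA::FLAG libraries and 5.96% ± 7.85 for WT libraries.

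The members were therefore set against the other genes of the same library. Their share minus that of the other genes was -3.10, -10.8 and -3.01 points in the VeA::FLAG replicates, 3.93, -15.1 and -4.78 points in the LaeA::FLAG replicates and -1.13, -1.86 and 0.899 points in the WT replicates. This excess was -5.64 ± 4.47 points in VeA::FLAG and -0.697 ± 1.43 points in WT (SD, n = 3 each), a difference of -4.94 points (exact two-sided permutation test, p = 0.1). It was -5.30 ± 9.50 points in LaeA::FLAG, and it differed by -4.61 points between LaeA::FLAG and WT (exact permutation test, p = 0.6) and by -0.33 points between VeA::FLAG and LaeA::FLAG (exact permutation test, p = 1). None of the 6 tests passed 0.05, and the smallest p after Benjamini-Hochberg adjustment over the 6 exact tests was 0.2. Several of these values depended on single libraries. The excess in VeA::FLAG against WT was -2.36 points without VeA::FLAG replicate 2 (exact permutation test, p = 0.2). The difference in the share of members between LaeA::FLAG and WT turned to -3.95 points without LaeA::FLAG replicate 1, and the others left out in turn gave 0.877 (without WT replicate 1) to 7.89 points (without LaeA::FLAG replicate 3). The excess in LaeA::FLAG against WT turned to 0.269 points without LaeA::FLAG replicate 2 and was -9.22 points without LaeA::FLAG replicate 1. The excess in VeA::FLAG against LaeA::FLAG turned to 4.28 points without LaeA::FLAG replicate 1 and to 2.25 points without VeA::FLAG replicate 2. The difference in the share of members between VeA::FLAG and LaeA::FLAG stayed between 18.4 and 30.3 points. In neither tagged strain was the mean share of members above that of the other genes.

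Few members were named in more than 1 library of a strain. Of the 38 members, 21 (55.3%) had a peak in at least 1 VeA::FLAG library, 11 (28.9%) in at least 2 and 4 (10.5%) in all 3. The background was 65.7%, 33.5% and 12.5% of the other genes. The 4 genes named in all 3 VeA::FLAG libraries were AN1035, AN6000, AN6001 and AN7895. In LaeA::FLAG, 9 members (23.7%) had a peak in at least 1 library and 1 member, AN7895, in 2, against 32.5% and 7.9% of the other genes. No member had a peak in all 3 LaeA::FLAG libraries (1.85% of the other genes). In WT, 6 members (15.8%) had a peak in 1 library and none in 2 or 3, against 16.7%, 1.07% and 0.0903% of the other genes.

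**Figure D2:**
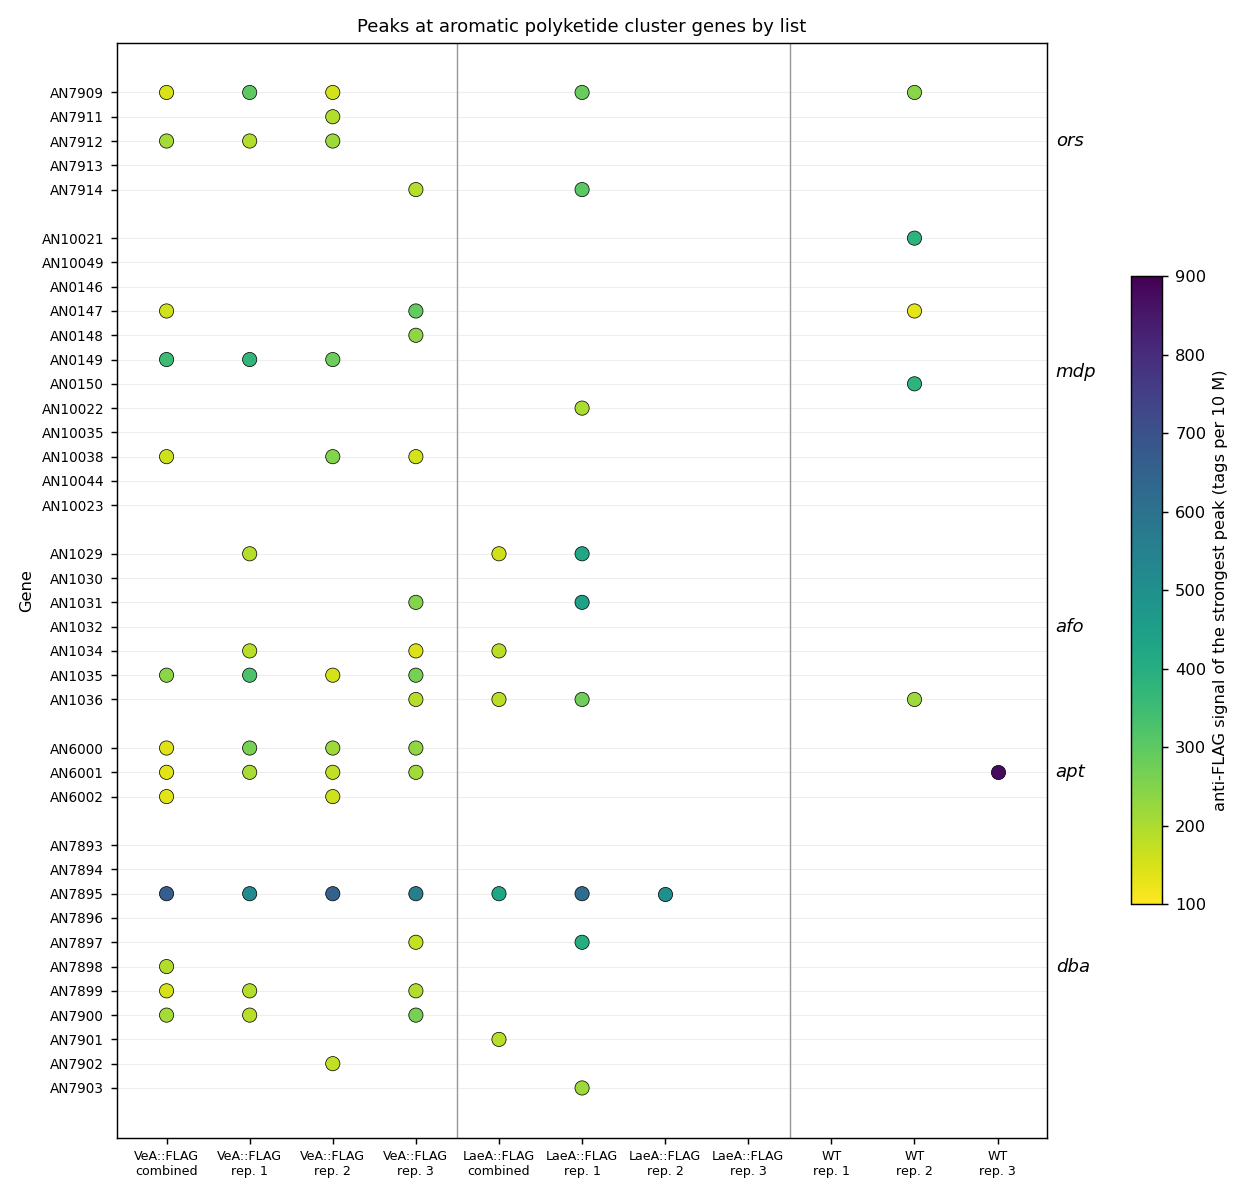
Peaks at each of the 38 members (rows, by cluster) in the 11 lists (columns). A point marks a gene named nearest to a peak, and its colour gives the anti-FLAG signal of the strongest such peak in tags per 10 M. AN7895 is marked in every list of the tagged strains but LaeA::FLAG replicate 3, and the WT points fall on 6 genes.

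In all, 27 members were nearest to a peak in 1 or more of the 11 lists and 11 were not. Of those 11, 5 were nearest to a merged region of the IgG tables but to no peak of these lists. They were the dba regulator AN7896 and AN0146, AN10035, AN10023 and AN1032. The other 6, AN7913, AN10049, AN10044, AN1030, AN7893 and AN7894, were never named as nearest gene. The nearest gene was set by the start of the nearest exon, and a gene between closer starts could not be named. By the annotation, VeA::FLAG peaks credited to neighbours lay in promoters of AN1032 (combined, signal 128), AN10044 (combined, 162) and AN7913 (replicate 3, 189). Among the 9453 other genes named at least once anywhere, 47.1% had a combined VeA::FLAG peak and 29.6% a combined LaeA::FLAG peak, against 40.6% and 15.6% of the 32 members so named.

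The clearest contact among the members lay upstream of AN7895 in the dba cluster. The combined VeA::FLAG peak was at chromosome II, 166373 to 166637, on the FGSC A4 assembly of the files, and was annotated as promoter. Its centre was at -722 bp from the start of exon 1 of AN7895 (negative distances are upstream). The anti-FLAG signal was 666 tags per 10 M, and no IgG tag of the VeA::FLAG strain fell there. Set against a floor of 3 IgG tags, the fold was at least 46.5. VeA::FLAG replicates 1, 2 and 3 had their own peaks with signals of 518, 652 and 563, at -732, -751 and -721 bp. All 3 single peaks had their centre within 100 bp of the combined one, which held for 1 of the 15 combined VeA::FLAG member peaks. Among the other combined VeA::FLAG peaks it held for 400 of 5487, so such recurrence was not particular to the members.

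LaeA::FLAG had a combined peak at the same promoter, at 166513 to 166789 and -576 bp, with a signal of 428 and an IgG signal of 135. LaeA::FLAG replicate 1 had a peak of 621 at -512 bp with an IgG signal of 105. The combined VeA::FLAG and LaeA::FLAG peaks overlapped by 125 bp, but their centres were 146 bp apart and so were not shared by the study's distance of 100 bp. LaeA::FLAG replicate 2 had its peak elsewhere, at 234 bp past the start of exon 2, with a signal of 505. LaeA::FLAG replicate 3 and the 3 WT libraries had no peak at AN7895. By score, the combined VeA::FLAG peak ranked 293 of 5502 and the combined LaeA::FLAG peak 572 of 3333, the highest of any member in each list.

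**Figure D3:**
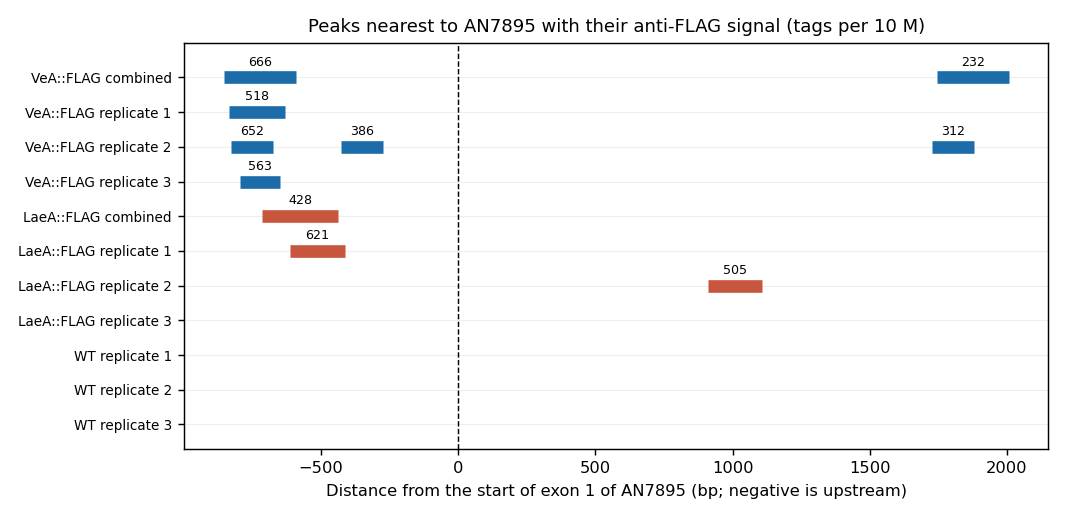
Peaks nearest to AN7895 in each list, drawn by their distance from the start of exon 1 in bp, with the anti-FLAG signal in tags per 10 M above each bar. The first peaks of the 3 VeA::FLAG libraries and the combined list lie over each other upstream, the LaeA::FLAG peaks of the combined list and replicate 1 lie closer to the exon, and the WT rows are empty.

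The IgG signal in the wider merged region over this promoter was not low. Over 166373 to 167140 the VeA::FLAG strain had an IgG signal of 198, the LaeA::FLAG strain 313 and WT 553, which is 0.787, 1.24 and 2.20 times the level that an even spread of tags over the chromosomes would give. In the combined VeA::FLAG peak itself the anti-FLAG signal was 7.67 times the even level, and in the combined LaeA::FLAG peak it was 4.71 times, with the IgG signal there at 1.48 times. The part of the IgG signal in the result was not tested.

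A second group of dba peaks lay farther along the cluster. AN7899 had a combined VeA::FLAG peak at 177576 to 177840, -209 bp from exon 1, with a signal of 151, and single peaks of 190 in replicate 1 and 196 in replicate 3. AN7900 had one at 180858 to 181122, -356 bp from exon 1, with a signal of 207, and single peaks of 187 in replicate 1 and 268 in replicate 3. Replicate 2 had neither. No IgG tags fell in any of these 6 peaks, and LaeA::FLAG and WT had no peak at either gene. The combined peaks stood at 1.74 (AN7899) and 2.38 (AN7900) times the even level. IgG tags were also absent from 34.6% of the other combined VeA::FLAG peaks. The synthase gene AN7903 was nearest to a single peak, in LaeA::FLAG replicate 1 (190114 to 190314). That peak lay 2999 bp past the start of exon 2 and inside the gene, with a signal of 218 and an IgG signal of 35.8. The annotation placed further LaeA::FLAG peaks in exons of AN7903, credited to the neighbour AN7904. Combined peaks lay at 191726 to 192002 (signal 160, IgG 73.0) and 193734 to 194010 (192, IgG 94.7). Replicate 1 had one at 191759 to 191959 (366, IgG 53.7). The other dba members with a peak were AN7897, AN7898, AN7901 and AN7902, with signals between 172 and 401 and no VeA::FLAG or LaeA::FLAG peak in more than 1 library of a strain.

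In the mdp cluster, VeA::FLAG peaks gathered between AN0149 and the regulator gene AN0148. The strongest combined peak (chromosome VIII, 4451386 to 4451650) had an anti-FLAG signal of 351 and an IgG signal of 4.77, which is 1 tag. The deposited annotation placed it in the promoter of AN0148 but named AN0149 as nearest, at 744 bp past the start of its exon 3. The VeA::FLAG replicates had peaks of 377, 280 and 237 there. The peaks of replicates 1 and 2 were also credited to AN0149, and that of replicate 3 to AN0148, at -686 bp from exon 1. These peaks therefore count for AN0149 in the main count although their annotation names the AN0148 promoter. Only the peak of replicate 1 had its centre within 100 bp of the combined one. A second combined peak (4450567 to 4450831, signal 168) lay at -75 bp from exon 3 of AN0149. Neither LaeA::FLAG nor WT had a peak at AN0148 or AN0149. The merged region over the AN0148 promoter (4451327 to 4452023) had IgG signals of 310, 274 and 326 in the VeA::FLAG, LaeA::FLAG and WT strains, which is 1.36, 1.20 and 1.43 times the even level.

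AN10038, also of the mdp cluster, had a combined VeA::FLAG peak at 4439213 to 4439477 with a signal of 162 and single peaks of 248 in replicate 2 and 155 in replicate 3. The annotation placed them in the promoter of AN10044. The synthase gene AN0150 and the regulator gene AN10021 were nearest to a peak only in WT replicate 2, with signals of 382 at both (4444983 to 4445167 and 4459002 to 4459186). They were nearest to none in any list of a tagged strain. By the annotation, a VeA::FLAG replicate 2 peak credited to AN0149 (4450202 to 4450354, signal 180) lay in the AN0150 promoter. A combined LaeA::FLAG peak credited to AN10039 (4460977 to 4461253, signal 231) lay at the transcription termination site of AN10021. AN0147 had a combined VeA::FLAG peak of 159 and a single one of 292 in replicate 3, and at another site a peak of 132 in WT replicate 2. With 3 of 12 genes, mdp had as many members with a peak in a WT library as in the combined VeA::FLAG list. LaeA::FLAG had 1 peak with an mdp member as nearest gene, at AN10022 in replicate 1 (signal 202).

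In the afo cluster the strains marked different genes in the combined lists. VeA::FLAG had AN1035, with a combined peak at chromosome VIII, 1733311 to 1733575, -297 bp from exon 1, and a signal of 238 over an IgG signal of 90.7. The VeA::FLAG replicates had peaks of 328, 151 and 268 there, at -171, -275 and -420 bp, of which 1 lay within 100 bp of the combined centre. By the annotation, a combined VeA::FLAG peak credited to AN1033 (1744711 to 1744975, signal 128, IgG 19.1) lay in the AN1032 promoter. LaeA::FLAG had neither a combined nor a single peak at AN1035. Its combined peaks were at the synthase genes AN1036 (1723007 to 1723283, signal 183, IgG 79.6) and AN1034 (1735644 to 1735920, signal 183, IgG 70.7) and at the regulator gene AN1029 (1753121 to 1753397, signal 158, IgG 65.5). The first lay 867 bp past the start of exon 3 of AN1036 and the second 2038 bp past that of exon 3 of AN1034. Of these, only the AN1036 peak had a single LaeA::FLAG peak within 100 bp, in replicate 1 (signal 276).

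At AN1029 a LaeA::FLAG and a VeA::FLAG peak coincided. LaeA::FLAG replicate 1 had a peak at 1753681 to 1753881 with a signal of 422, and VeA::FLAG replicate 1 had one at 1753683 to 1753885 with a signal of 190. Their centres were 3 bp apart, the only pair of VeA::FLAG and LaeA::FLAG peaks at a member within 100 bp. Neither combined list had a peak at that place, and replicates 2 and 3 of both strains had none. AN1034 had 2 VeA::FLAG peaks in replicate 1 (signals 143 and 187) and 1 in replicate 3 (144), each at another place. AN1036 had a VeA::FLAG peak in replicate 3 (189) and a WT peak in replicate 2 (220), each at a place of its own.

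The apt cluster had a combined VeA::FLAG peak credited to each of its 3 genes and no LaeA::FLAG peak in any list. The annotation placed the combined and single VeA::FLAG peaks credited to AN6001 in the promoter of AN6000. By the gene named in the annotation, AN6000 and AN6002 thus had a combined VeA::FLAG peak and AN6001 had none. The signals were 140 at the synthase gene AN6000 (chromosome I, 1547335 to 1547599), 137 at AN6001 (1542694 to 1542958) and 135 at AN6002 (1539824 to 1540088), the lowest 3 of the 15 combined VeA::FLAG member peaks. AN6000 had single peaks of 263, 217 and 234 in VeA::FLAG replicates 1, 2 and 3, and AN6001 had 205, 177 and 209. They lay at different places in different replicates, and each combined apt peak had a single peak within 100 bp in 1 library. WT replicate 3 had a peak of 876 at AN6001 (1542158 to 1542366), which stood for 28 tags in the smallest library of the series, where 1 tag was worth 31.3 units.

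In the ors cluster AN7912 had a combined VeA::FLAG peak (chromosome II, 217568 to 217832) with a signal of 209 over an IgG signal of 50.1, and peaks within 100 bp of it in replicates 1 (193) and 2 (217). The synthase gene AN7909 had a combined VeA::FLAG peak of 149 inside the gene (211829 to 212093), 1960 bp past the start of exon 2. VeA::FLAG replicates 1 and 2 had peaks of 298 and 156, LaeA::FLAG replicate 1 had one of 287 and WT replicate 2 one of 242. The peaks of VeA::FLAG replicate 2 and LaeA::FLAG replicate 1 lay at other places in the gene. The WT peak overlapped the combined VeA::FLAG peak by 80 bp, with the centres 145 bp apart, so it was not removed as a shared peak at 100 bp. No combined LaeA::FLAG peak was named for an ors gene.

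**Figure D4:**
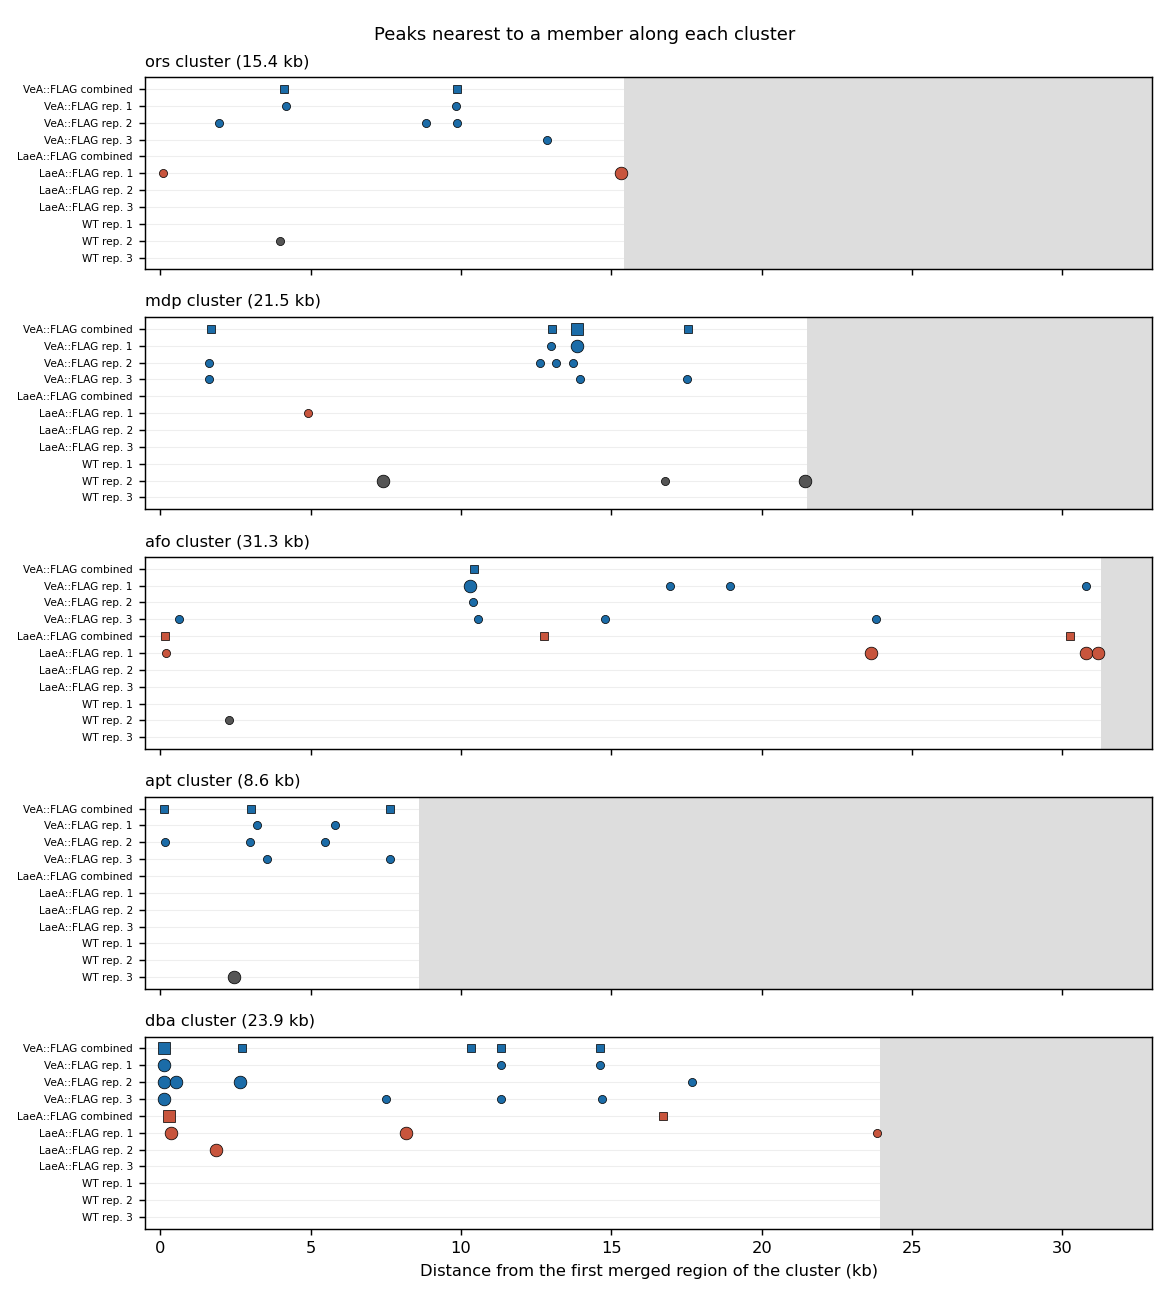
Peaks nearest to a member along each cluster, by distance in kb from the first merged region of that cluster, with 1 row per list (squares combined, circles single libraries, larger symbols for signals of 300 or more, grey area past the last region). VeA::FLAG peaks (blue) of several lists lie close together at the left end of dba, farther along dba and inside mdp, afo and ors. Most LaeA::FLAG (red) and WT (dark grey) peaks stand alone.

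By role, 2 of the 6 polyketide synthase genes were nearest to a combined VeA::FLAG peak (AN7909 and AN6000). Another 2 (AN1034 and AN1036) were nearest to a combined LaeA::FLAG peak. In the single libraries 4 of the 6 were nearest to a VeA::FLAG peak, 3 to a LaeA::FLAG peak and 3 to a WT peak. By the annotation, AN7903 also had combined LaeA::FLAG peaks, and AN0150 had a peak in VeA::FLAG replicate 2. Of the 4 regulator genes, none was nearest to a combined VeA::FLAG peak and 1 (AN1029) to a combined LaeA::FLAG peak. In the single libraries 2 were nearest to a VeA::FLAG peak (AN0148 and AN1029), 1 to a LaeA::FLAG peak and 1 to a WT peak. By the annotation, AN0148 had a combined VeA::FLAG peak and AN10021 a combined LaeA::FLAG peak, both credited to other genes. Among all other genes, 40.2% had a combined VeA::FLAG peak and 25.2% a combined LaeA::FLAG peak, and 65.7%, 32.5% and 16.7% had a peak in at least 1 library of VeA::FLAG, LaeA::FLAG and WT. No test was run on these 10 genes.

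The member peaks of the combined lists and of the VeA::FLAG libraries ranked low in their lists. The median score percentile of the 15 combined VeA::FLAG member peaks was 22.0, and 3 of them were above the median of the list. For the 5 combined LaeA::FLAG member peaks the median was 16.1, with 1 above. In the VeA::FLAG replicates the medians were 23.1, 30.0 and 29.6. The 10 member peaks of LaeA::FLAG replicate 1 had a median of 42.3, and the 1 member peak of replicate 2 was at 66.0, with a signal of 505 against a median of 407 at other peaks. The median anti-FLAG signal at combined VeA::FLAG peaks was 168 at members and 223 at other peaks, and at combined LaeA::FLAG peaks 183 at members and 255 at other peaks. As multiples of an even spread of tags, the combined VeA::FLAG member peaks ranged from 1.56 to 7.67 with a median of 1.93, against a median of 2.57 for the other peaks, and 8 of the 15 (53.3%) were below 2, against 30.2% of the other peaks. Member peaks in all lists held 15.0 to 337 tags, with a median of 47.0.

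**Figure D5:**
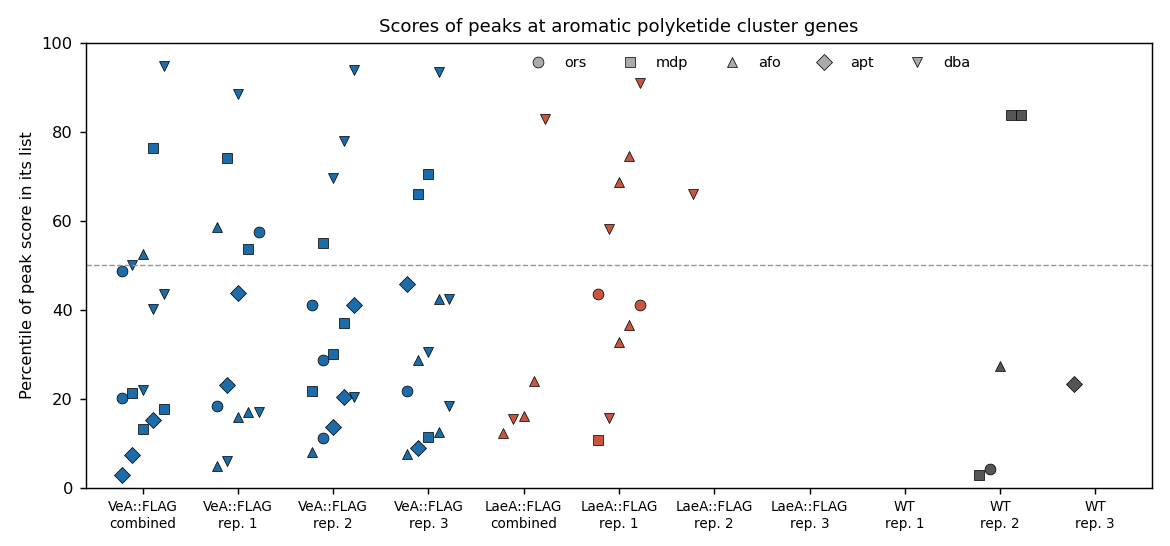
Percentile of each member peak's score within its own list (0 lowest, 100 highest), with 1 symbol shape per cluster. Most VeA::FLAG points lie under the dashed line at 50, and the points above 88 in the VeA::FLAG and LaeA::FLAG lists are the peaks upstream of AN7895.

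The place of the peaks in the genes was described by the deposited annotation and by exon starts. Of the 15 combined VeA::FLAG member peaks, 11 (73.3%) were annotated as promoter, as were 74.1% of the other peaks. A centre no more than 1.5 kb upstream of exon 1 of the gene named was found for 5 (33.3%), against 46.9% of the other peaks. These were the peaks upstream of AN1035, AN6002, AN7895, AN7899 and AN7900. By that stricter count 5 members (13.2%) had a combined VeA::FLAG peak and 22% of the other genes did. For LaeA::FLAG, 1 member (2.63%, AN7895) had one, against 11.7% of the other genes. The lists give exon starts and not translation starts, so this count is close to the study's definition but not the same.

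IgG signal was measured at the same places, whereas the background of the antibody could be read only from the called WT peaks. None of the 20 combined member peaks had a WT anti-FLAG peak centre within 100 bp, so removing such peaks left 13 and 5 members. Few other peaks had one either, 132 of 5487 in the combined VeA::FLAG list and 145 of 3328 in that of LaeA::FLAG. The absence at members therefore does not set them apart. The combined LaeA::FLAG member peaks had folds of 2.30 to 3.75 over IgG, and none reached 4, whereas 10 of the 15 combined VeA::FLAG member peaks (66.7%) did. Other peaks showed the same contrast between strains, since 75.2% of them reached 4 in the combined VeA::FLAG list and 18.1% in the combined LaeA::FLAG list. No IgG tag fell in 5 of the 15 VeA::FLAG member peaks (33.3%) and in 34.6% of the other peaks of that list. The IgG libraries differ in depth, 2095244.5 tags in VeA::FLAG, 10610394 tags in LaeA::FLAG and 2656259 tags in WT, so 1 tag was worth 4.77, 0.942 and 3.76 units. Over the 73 merged regions nearest to members, the median IgG signal of the VeA::FLAG strain was 54.9, of the LaeA::FLAG strain 90.5 and of WT 80.9, against 40.6, 92.4 and 77.2 over the other 21824 regions. The VeA::FLAG IgG signal was 0 in 17 of these 73 regions (23.3%, against 29.0% of the other regions), the LaeA::FLAG IgG signal in none (0.133% of the others) and the WT IgG signal in 3 (7.32% of the others). The part of IgG depth in the peak calls was not tested.

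Every peak between the first and last member region of a cluster was also counted, whatever its nearest gene. The 5 intervals covered 101 kb and held 16 combined VeA::FLAG peaks, or 15.9 per 100 kb, against 18.0 per 100 kb in the rest of the chromosomes. They held 5 combined LaeA::FLAG peaks, or 4.96 per 100 kb, against 10.9. For VeA::FLAG the apt interval was densest with 34.9 peaks per 100 kb (3 peaks) and afo least dense with 6.39 (2 peaks), while dba (20.9) and mdp (18.6) were near the rest and ors had 13.0. For LaeA::FLAG, afo had 9.58 (3 peaks), dba 8.35 (2 peaks) and the other intervals none. The interval ends were set by regions nearest to a member. The apt and dba intervals thus began at a combined VeA::FLAG peak and afo at a combined LaeA::FLAG peak. Such ends raise the densities, which matters most in the apt interval of 8.59 kb. At its other end the dba interval stopped at 190314, inside AN7903. The combined LaeA::FLAG peaks in AN7903 at 191726 to 192002 and 193734 to 194010 lay outside it and were not counted. Among the single libraries, the density inside the intervals was above that of the rest in LaeA::FLAG replicate 1 (9.92 against 8.09 per 100 kb) and WT replicate 3 (0.992 against 0.658), and below it in the other 7. These counts are small, and the dba and ors intervals lie on the same chromosome, 166 and 208 kb from its end.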

How the data were processed

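The authors deposited 9 annotated peak lists of single anti-FLAG libraries, 2 combined lists and 3 IgG tables of the same 21897 merged regions. By the study's methods, bowtie2 mapped the reads and HOMER (4.11 in the submitters' processing notes) called the peaks at high sensitivity. The deposited signal of a peak or region is its tags per 10 M tags of the library, in steps of 0.5 tags, so no count model was fitted. The score deposited by the authors was used to rank peaks within a list, and the score gives no replicate error. Coordinates are those of the FGSC A4 files.

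Genes were taken from the nearest promoter column, which gives the nearest exon start. The RefSeq table of ASM1142v1 matched all 38 members and served for the gene universe only. Exon 1 is the 5' exon on both strands, as inferred from the distances. Shares of genes were compared over libraries with exact two-sided permutation tests. Pooled lists had no replicates and were not tested. Peaks were called found in a replicate when centres lay within 100 bp. The level of an even spread is 328 units per kb over 30.5 Mb and was added after the values were seen. Folds over 0 IgG tags used a floor of 3 tags and cover counting error only.

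The members and lists were chosen with earlier results of these data known. Named genes were the 6 synthase and 4 regulator genes, and every member in both combined lists, in a combined list with at least 2 single lists of its strain, or in a WT list. Genes named beside these were chosen after their values were seen. Scripts used Python 3.11.15, pandas 2.3.3, numpy 2.4.6, scipy 1.17.1 and matplotlib 3.10.9, and were tested on simulated lists. Promoter motifs were not analysed here.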

Additional observations from a re-analysis of the deposited data

How the results depend on the processing

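The 6 comparisons of shares over libraries and the counts in the combined lists were repeated under each alternative. With equal numbers of top-scoring peaks (134 per list) no member had a peak in any library, so the excess over other genes turned to 0.0692 points for VeA::FLAG against WT, 0.0241 for LaeA::FLAG against WT and 0.0451 for VeA::FLAG against LaeA::FLAG. With no member named, these values reflect the shares of the other genes only. Leaving out 1 library gave 23.7 to 30.3 points for members in VeA::FLAG against WT, 18.4 to 30.3 in VeA::FLAG against LaeA::FLAG and -3.95 to 7.89 in LaeA::FLAG against WT, which was reversed without LaeA::FLAG replicate 1 (-3.95). The excess ranged from -6.25 to -2.36, -5.21 to 4.28 and -9.22 to 0.269 points in the same order of comparisons. It was reversed without LaeA::FLAG replicate 2 against WT (0.269), and between VeA::FLAG and LaeA::FLAG without LaeA::FLAG replicate 1 (4.28) or VeA::FLAG replicate 2 (2.25). Over all alternatives the exact p ranged from 0.1 to 1, and no design here can pass 0.05.

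Peaks within 1.5 kb upstream of exon 1 left 5 members in the combined VeA::FLAG list and 1 in that of LaeA::FLAG. Of the other genes, 22% and 11.7% were left. A fold of at least 4 left 9 members (23.7%) in the VeA::FLAG list, against 31.4% of the other genes. It left 0 members in the LaeA::FLAG list and 0 in both lists, against 4.84% and 3.12% of the other genes. The LaeA::FLAG density ratio inside the clusters was then 0. With the gene named in the annotation, added after seeing the data, 13 (34.2%) and 7 (18.4%) members were counted, AN7895 in both. The other genes then had shares of 38.5% and 24.1%. Of the combined VeA::FLAG member peaks, 5 (33.3%) were found in at least 2 replicates, against 30.1% of the other peaks, 3 with 50 bp between centres and 2 to 3 when 1 replicate was left out. For LaeA::FLAG the number was 0 throughout, against 10.1% of the other peaks at 100 bp. The replicate block gave the same differences, 26.3 and 3.51 points against WT and 22.8 between the tagged strains, with p = 0.25, 1 and 0.25 by exact sign flips, where 0.25 is the smallest possible. Same-numbered libraries did not deviate together (r from -0.0201 to 0.0459 in 9 pairs), so the numbers were not read as pairing.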

Other observations

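Of 10 other polyketide synthase genes outside the 5 clusters, 6 were nearest to a peak in the combined VeA::FLAG list and 4 in the combined LaeA::FLAG list, with 3 of them (AN0523, AN7071 and AN8209) in both. Of all AN genes other than the members, 40.2%, 25.2% and 15.7% had a peak in the first, the second and both lists. The single libraries named 5, 9 and 8 of the 10 in VeA::FLAG, 5, 2 and 0 in LaeA::FLAG and 0, 4 and 0 in WT. WT replicate 2 also named AN0523, AN7071 and AN8209. Of 3 xanthone genes outside the mdp cluster, AN6784 and AN12402 had a combined VeA::FLAG peak and none had a LaeA::FLAG or WT peak in any list. Of 7 genes beside or between members, 3 had a combined VeA::FLAG peak and 4 a combined LaeA::FLAG peak, with AN7904 in both. AN7904 lies next to the dba synthase gene AN7903, and 2 combined LaeA::FLAG peaks inside AN7903 (signals 192 and 160) were credited to it. So was a peak of 366 inside AN7903 in LaeA::FLAG replicate 1.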
